A study of Mus musculus with 4 samples.

Results

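Loss of TRAF6 from the epidermis was examined in inflamed skin by comparing ears of imiquimod-treated mice of both genotypes. Imiquimod (IMQ) is a small-molecule agonist of Toll-like receptor 7 whose cream, spread on mouse skin, gives a psoriasis-like inflammation. The comparison was the log2 level on the array labelled Traf6EKO skin with IMQ minus that on the array labelled Traf6f/f skin with IMQ. It covered all probe sets listed with exactly 1 gene symbol, and each gene was read by its brightest probe set, judged by the mean of all arrays. This gave 19938 genes, the same 19938 as in the whole series, read on 2 of its 4 arrays. The other 2 arrays, of the same genotypes without IMQ, were used to show each gene's level in untreated skin.

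Traf6EKO mice (EKO below) are epithelial knockouts, described by the submitters as lacking TRAF6 in keratinocytes, and Traf6f/f mice (f/f below) carry the floxed gene and served as controls. All mice were female and 8 weeks old. Treated mice received 10 mg of IMQ cream on the ear daily for 2 days, and RNA came from the whole ear. The sources used here do not give the promoter that drives the recombinase. The study's text gives n = 2, but each group has 1 array, and whether animals were pooled is not stated. There is therefore no replicate, no spread and no test, and the number of arrays limits the precision: "higher" and "lower" compare these arrays, and differences between ears cannot be told apart from differences between genotypes. A whole ear holds epidermis, hair follicles, dermis, fat, muscle, cartilage and blood cells. Fewer cells of a type and less RNA per cell cannot be told apart in such samples.

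The TRAF6 protein, a signalling adaptor with ubiquitin ligase activity, acts downstream of the IL-1 receptor family, most Toll-like receptors and, by way of Act1, the IL-17 receptor. Through it, the kinase TAK1 and the IκB kinases release NF-κB, and MAP kinases activate AP-1. Keratinocytes use these routes to make antimicrobial peptides, neutrophil-attracting chemokines and further IL-1 family cytokines, and these products are characteristic of psoriatic skin.

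Values are log2 levels made by RMA, a method that corrects background, normalises arrays and summarises probes, and a pair of levels is always given as f/f then EKO. A gene was compared where it reached the median of all genes on at least 1 of the 2 arrays, a floor of 6.93 on the f/f IMQ array and 6.94 on the EKO IMQ array. Levels under the floor lie close to background, so the folds of such genes are imprecise. A gene over the floor in only 1 treated ear had to be higher in that ear, so its direction was fixed by this rule. Keratinocyte markers were high in both treated ears: Krt5 read 12.80 and 12.82, Krt14 13.02 and 12.90, Krt1 12.79 and 12.94 and Krt10 12.98 and 13.12. The 12 keratinocyte markers had a median difference of 0.03.

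Traf6 itself read 9.51 and 9.65 without IMQ and 9.30 and 9.35 with IMQ. It was thus 0.05 higher, not lower, on the array labelled EKO with IMQ. The ear also holds cells other than keratinocytes, which cells lost the gene was not measured, and the sources do not say whether the probes fall inside the deletion. This reading therefore checks nothing about it. The genotypes named below are those of the labels.

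With IMQ, 90 genes were at least 2-fold lower in EKO, 0.875% of the 10282 genes compared, and 43 were at least 2-fold higher, 0.418%. The lower genes were led by the antimicrobial defensins Defb3 and Defb4, the alarmins S100a8 and S100a9, small proline-rich proteins of the cornified envelope and the cytokine gene Il1b. The higher genes were mainly keratin-associated proteins and other hair genes. Among the lower genes 34 differed at least 3-fold, 22 at least 4-fold and 6 at least 8-fold; among the higher genes 12, 7 and 0 did. Slightly more genes lay below 0 than above it, 5234 of 10282 or 50.9%, with a median difference of -0.01. The list counts given below are to be read beside these shares of 0.875% lower by 2-fold, 0.418% higher by 2-fold and 50.9% below 0. The middle 95% of differences ran from -0.60 to 0.54. Just inside and just outside the 2-fold limit lay Ces4a at -1.002 and Tnfaip6 at -0.994 on the lower side, and Krtap24-1 at 1.006 and Lyz1 at 0.997 on the higher side.

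**Figure D1:**
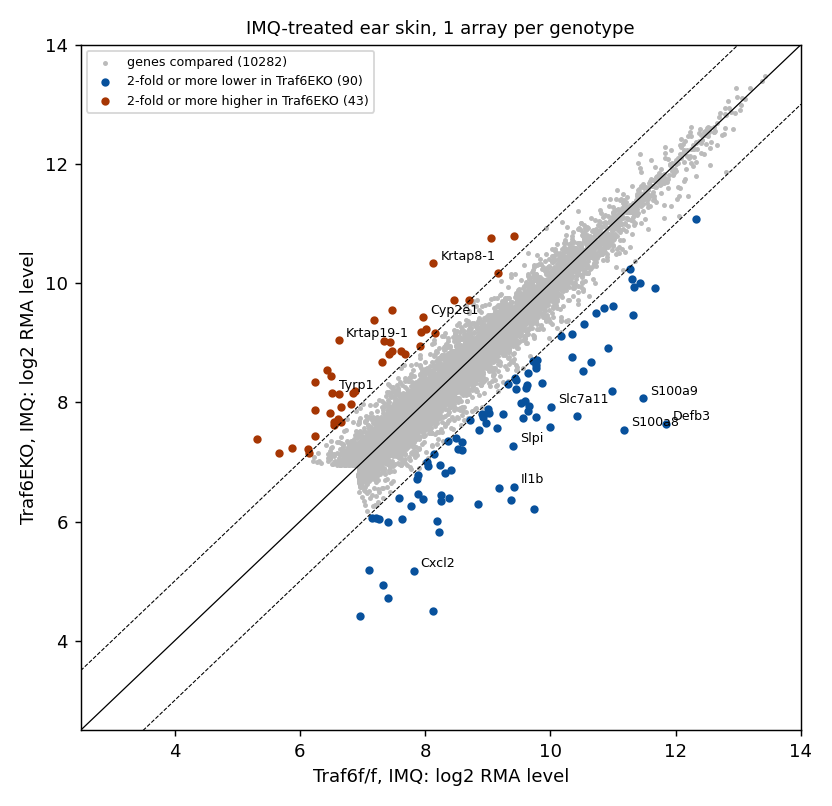
Log2 RMA level of each of 10282 genes on the Traf6f/f IMQ array (horizontal axis) and the Traf6EKO IMQ array (vertical axis), 1 array per genotype. Grey points are genes compared, blue points the 90 genes at least 2-fold lower in EKO, red-brown points the 43 at least 2-fold higher, the solid line is equality and the dashed lines are 2-fold; Defb3 and S100a8 lie farthest below the line among bright genes.

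The 2 sets differed in how they stood in untreated skin. The median level of the 90 lower genes was 6.82 and 6.83 without IMQ and 9.35 and 7.68 with IMQ. Most were thus near or under the floor in untreated ears of both genotypes, high in the treated f/f ear and in between in the treated EKO ear. Of the 90, 51 were under the floor on the untreated f/f array and 30 on the EKO IMQ array. The median level of the 43 higher genes was 8.59 and 8.19 without IMQ and 6.85 and 8.54 with IMQ. Here the treated f/f ear was the low one, with 23 of the 43 genes under its floor, and the treated EKO ear was close to both untreated ears.

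**Figure D2:**
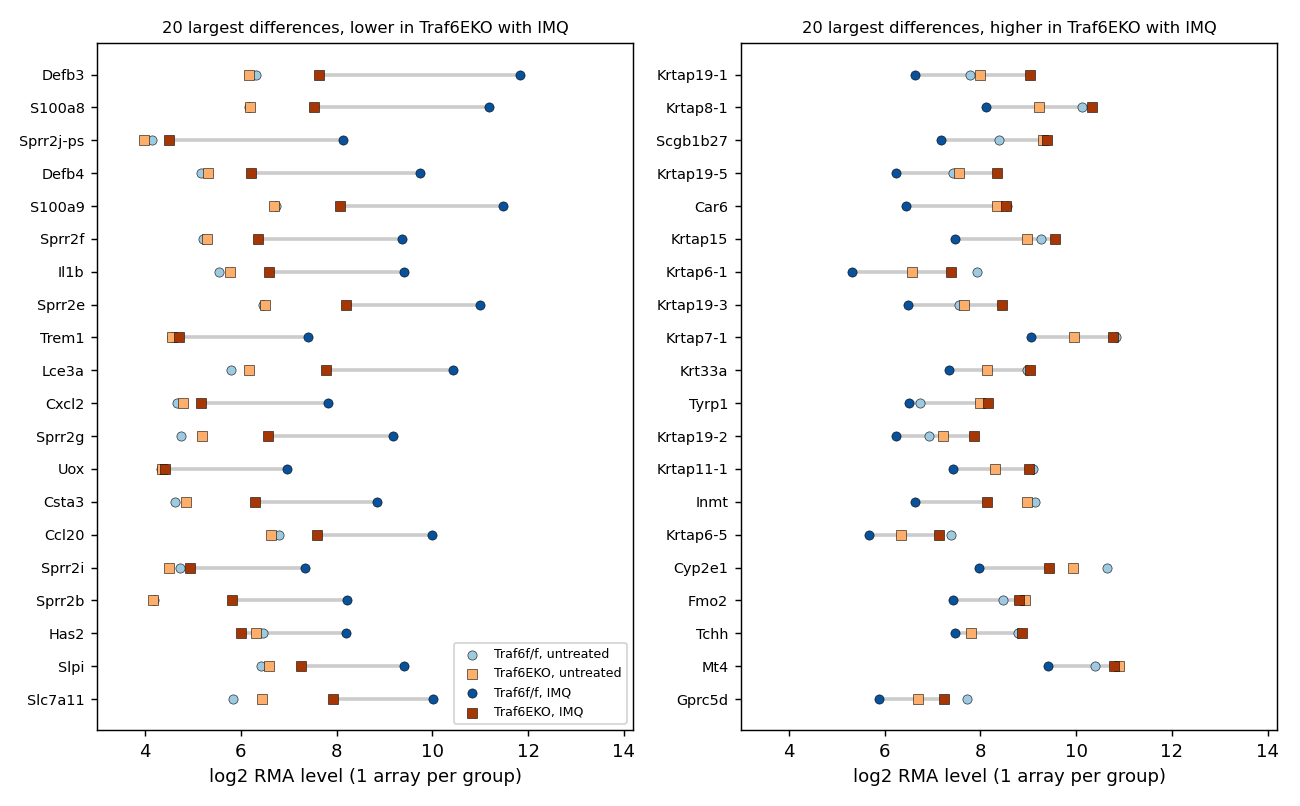
Log2 RMA levels of the 20 genes with the largest difference in each direction, 1 point per array (circles Traf6f/f, squares Traf6EKO, pale untreated, dark IMQ); the grey bar joins the 2 IMQ arrays. In the left panel the f/f IMQ array stands above the other 3 arrays for each gene, and in the right panel it stands below them for each gene.

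The components that carry TRAF6 signals differed little. None of 10 TRAF family members and partners reached 1.5-fold, and their median difference was -0.03. Traf2, which serves TNF receptors, read 7.75 and 7.86 with IMQ, and Traf3ip2, which encodes Act1, read 8.19 and 8.31. None of 15 receptor-proximal adaptors and kinases reached 1.5-fold either, with 8 higher and 7 lower. Myd88, the adaptor shared by IL-1 and Toll-like receptors, read 9.40 and 9.67 without IMQ and 10.38 and 9.95 with IMQ. Irak3, an inhibitory kinase of the same complex, read 8.83 and 8.85, then 9.61 and 9.14.

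Of 10 Toll-like receptor genes 8 were lower and 2 higher in EKO with IMQ, and 6 of the 10 lay under the floor. Tlr13, a receptor for bacterial ribosomal RNA, had the largest difference, -0.72, at 8.23 and 7.51. Tlr7, the receptor for IMQ, read 6.08 and 6.30, under the floor on both treated arrays.

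NF-κB subunits and feedback inhibitors were lower in EKO for 15 of 16 genes, with a median of -0.25 against -0.01 over all genes, and 1 passed 2-fold. That gene was Bcl3, a nuclear IκB protein: it read 7.35 and 7.44 without IMQ and 9.61 and 8.23 with IMQ, a 2.60-fold difference. Other NF-κB-induced inhibitors past 1.5-fold were Tnfaip3 (A20) with a difference of -0.75, Zc3h12a (a ribonuclease that degrades cytokine mRNAs) with -0.74 and Nfkbia (IκBα) with -0.59. Cyld, a deubiquitinase that restrains NF-κB, was the exception at 0.40. The subunits Rel and Rela had differences of -0.34 and -0.24.

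AP-1 and immediate-early factors were mixed, with 13 of 18 lower, a median of -0.09 and none past 2-fold. Fosl1, a Fos-family factor of wounded epidermis, read 7.06 and 7.38 without IMQ and 8.81 and 7.91 with IMQ. Dusp6, a phosphatase induced by MAP kinase signalling, had a difference of -0.58, whereas Fosb was higher by 0.51.

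Among IL-1 family cytokines and receptors 14 of 18 genes were lower in EKO and 3 passed 2-fold, all of them cytokines. Il1b, the secreted cytokine of the inflammasome, read 5.54 and 5.77 without IMQ and 9.41 and 6.58 with IMQ, 7.12-fold lower in EKO. Only the treated f/f ear was above the floor for this gene. Il1a, a cytokine stored in keratinocytes, read 8.82 and 9.26, then 10.86 and 9.58, and was 2.43-fold lower. Il33, the alarmin of epithelial nuclei, read 8.92 and 9.17, then 10.54 and 9.31, and was 2.35-fold lower. The IL-36 cytokines, listed under older symbols, were nearer to each other: Il1f6 (IL-36α) had a difference of -0.99, Il1f9 (IL-36γ) -0.43 and Il1f8 (IL-36β) -0.17. Il1rn, the IL-1 receptor antagonist, had a difference of -0.59. Il18 was higher by 0.30.

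Only 7 of 15 genes of the IL-17 and IL-23 axis reached the floor. Of the 15, 12 were lower, against 50.9% of all genes compared, and 1 passed 2-fold. It was Il17c, the family member made by epithelial cells, which read 6.11 and 5.87 without IMQ and 7.26 and 6.04 with IMQ, so that it exceeded the floor in the treated f/f ear alone. The lymphocyte cytokines Il17a and Il17f lay under the floor on all 4 arrays, at 5.86 and 5.61 and at 6.58 and 6.08 with IMQ, and so did Il23a at 5.78 and 5.08. The receptor gene Il17ra read 7.91 and 7.64. Il12rb2, a chain of the IL-12 receptor, was higher in EKO by 0.87.

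The IL-20 and STAT3 list had a median of -0.23 over 17 genes, which became 0.04 when the members under the floor were left out. Its cytokine receptors split by direction. Osmr, the oncostatin M receptor, was lower at 9.98 and 9.08, and Socs3, the feedback inhibitor of STAT3, at 8.58 and 7.92. Il20rb, Il20ra, Il6ra and Il22ra1 were higher by 0.61, 0.58, 0.54 and 0.40. Of the TNF superfamily and its receptors 13 of 17 were lower, none by 2-fold, and only 7 of the 17 reached the floor. Tnf read 7.36 and 6.69, and Tnfrsf12a, the TWEAK receptor, 8.47 and 7.71.

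The list of neutrophil chemokines, their receptors and growth factors was lower in EKO for 12 of 13 genes, with a median of -0.58. The 3 that passed 2-fold were the chemokine genes Cxcl2 and Ccl3 and the receptor gene Csf3r. The median was -1.10 over the 5 that reached the floor. Members that reach it only through the treated f/f ear, such as Cxcl2, had to be lower in EKO. Cxcl2, a ligand of the neutrophil receptor CXCR2, read 4.66 and 4.79 without IMQ and 7.81 and 5.17 with IMQ, and was 6.23-fold lower. Ccl3 read 6.84 and 7.01, then 9.65 and 7.85, and was 3.48-fold lower. Csf3r, the G-CSF receptor of neutrophils, read 7.16 and 6.06 with IMQ. Cxcl1 had a difference of -0.96 and the receptor gene Cxcr2 one of -0.78. Csf3, which encodes G-CSF, stayed under the floor at 5.49 and 5.58.

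Chemokines of monocytes, dendritic cells and lymphocytes were lower for 18 of 19 genes, with a median of -0.39, and 3 passed 2-fold. Ccl20, the CCR6 ligand that attracts IL-17-producing lymphocytes, read 6.81 and 6.63 without IMQ and 10.00 and 7.58 with IMQ, 5.33-fold lower in EKO. The monocyte attractants Ccl2 and Ccl7 read 8.86 and 7.54 and 9.46 and 8.38 with IMQ, while each of them differed by only -0.05 between genotypes without IMQ. Ccl19 and Cxcl14 had differences of -0.57 each.

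The promoters of the lower genes were searched because TRAF6 signals to NF-κB and AP-1. RefSeq windows of 250 bases before the gene start (build GRCm38.p6) matched 66 of the 90 lower genes, 37 of the 43 higher genes and 8243 of the 10282 genes compared. The NF-κB motif GGNNTTTCC, on either strand, lay in 7 of 66 windows of lower genes (10.6%), 1 of 37 of higher genes (2.70%) and 4.97% of all windows. The 7 genes were Cxcl2, Ccl20, Sprr2b, Saa3, Acod1, Bcl3 and Tnfaip2. Shown here are the windows of the 3 among the 20 lowest genes that hold it, with each match in capitals. The windows are of the plus strand, at chr5:90903649-90903898, chr1:83116516-83116765 and chr3:92316455-92316704. The Ccl20 and Sprr2b matches are to the reverse complement of the motif.
Cxcl2: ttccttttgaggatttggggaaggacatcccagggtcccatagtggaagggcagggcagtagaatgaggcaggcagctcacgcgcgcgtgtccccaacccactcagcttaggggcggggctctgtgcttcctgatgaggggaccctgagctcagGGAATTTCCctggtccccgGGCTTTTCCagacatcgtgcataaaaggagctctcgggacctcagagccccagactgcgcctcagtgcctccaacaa
Ccl20: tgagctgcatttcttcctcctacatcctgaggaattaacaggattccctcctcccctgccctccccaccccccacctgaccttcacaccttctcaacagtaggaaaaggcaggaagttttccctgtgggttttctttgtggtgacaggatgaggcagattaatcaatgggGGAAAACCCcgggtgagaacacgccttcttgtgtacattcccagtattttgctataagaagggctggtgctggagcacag
Sprr2b: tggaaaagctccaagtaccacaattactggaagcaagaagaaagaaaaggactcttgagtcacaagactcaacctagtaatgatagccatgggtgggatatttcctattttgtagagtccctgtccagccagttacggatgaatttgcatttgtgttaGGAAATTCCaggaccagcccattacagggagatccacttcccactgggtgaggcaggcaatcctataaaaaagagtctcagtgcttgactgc
The Cxcl2 window held 2 matches, beginning 96 and 77 bases before the gene start. The match began 80 bases before the start of Ccl20 and 92 before that of Sprr2b.

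The AP-1 motif TGANTCA lay in 10 of the 66 windows of lower genes (15.2%), 2 of 37 of higher genes (5.41%) and 4.84% of all windows. Of the 10, 5 belonged to Sprr2 genes (Sprr2b, Sprr2d, Sprr2e, Sprr2f and Sprr2i), near-identical relatives whose promoters are not independent. The C/EBP motif TTGNNCAA lay in 13 of 66 windows (19.7%), those of Slpi, Slc7a11, Lcn2, Clec4e, Ptgs2 and Hdc among them, against 8.11% of higher genes and 4.66% of all windows. The E2F motif TTTNGCGC lay in 0 of 66 and 0 of 37 windows and in 2.07% of all. Motif matches are letters in these windows only, and one base can belong to matches of several motifs.

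None of the listed type I interferon-induced genes passed 2-fold, although most lay on the same side. Of the 26 genes 22 were lower in EKO with IMQ, with a median of -0.43, and the median without IMQ was -0.03. Bst2 (tetherin) read 8.75 and 8.09, Oasl2 9.62 and 8.99, Oas2 8.70 and 8.15 and the regulator Irf7 9.60 and 9.05. Genes of the interferon-gamma type showed no common direction. Cxcl9 was lower at 8.59 and 7.79, and Cxcl10, a ligand of the same receptor, was higher at 7.72 and 8.36; without IMQ both were lower in EKO, Cxcl10 at 7.83 and 6.66.

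The antimicrobial and acute-phase list held the gene with the largest difference, Defb3. Of 26 genes 19 were lower in EKO with IMQ and 7 passed 2-fold, with a median of -0.29. Over the 18 members that reached the floor the median was -0.70; members that reach it only through the treated f/f ear had to be lower in EKO. Defb3, a beta-defensin, read 6.32 and 6.17 without IMQ and 11.84 and 7.64 with IMQ, 18.3-fold lower in EKO. Defb4, a related beta-defensin, read 5.18 and 5.31, then 9.74 and 6.21, and was 11.5-fold lower. Defb14, another beta-defensin, was 2.69-fold lower at 7.89 and 6.46, although without IMQ it was the higher in EKO at 4.98 and 5.86, both under the floor. Beta-defensin genes have close relatives, and a probe set can read more than its own gene.

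Other secreted defence proteins followed the same order of arrays. Slpi, a protease inhibitor that also kills bacteria, read 6.43 and 6.59 without IMQ and 9.40 and 7.27 with IMQ, a 4.39-fold difference. Lcn2, which withholds iron from bacteria, read 8.27 and 8.15, then 10.91 and 8.90, a 4.03-fold difference. Saa3, an acute-phase protein, was 3.54-fold lower and Lpo, a peroxidase, 2.12-fold lower. The gene for lysozyme Lyz1 was on the other side, at 10.66 and 10.61 without IMQ and 8.68 and 9.68 with IMQ.

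The S100 calcium-binding proteins split into 3 strongly lower genes and 10 others. S100a8 and S100a9, the subunits of calprotectin, were 12.5-fold and 10.6-fold lower in EKO with IMQ. S100a8 read 6.17 and 6.18 without IMQ and 11.18 and 7.54 with IMQ. S100a9 read 6.73 and 6.70, then 11.47 and 8.07. In both genes the genotypes were level without treatment, but both untreated readings lay under the floor. The treated EKO ear lay above the untreated ears and far below the treated f/f ear. S100a7a, a relative of psoriasin, was 2.24-fold lower. S100a3, a protein of the hair cuticle, was higher by 0.90.

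Calprotectin, Lcn2 and Slpi are made both by activated keratinocytes and by neutrophils, so the neutrophil markers are given beside them. Of 25 measured neutrophil markers 21 were lower in EKO with IMQ and 8 passed 2-fold, with a median of -0.54. Markers that reach the floor only through the treated f/f ear, such as Trem1, had to be lower in EKO. The median was -1.21 over the 14 that reached the floor and -0.33 over the markers on no other list. Their summed unlogged level was 3705 and 3665 without IMQ and 13148.5 and 5189.7 with IMQ, a sum that S100a8, S100a9 and Lcn2 themselves enter. Trem1, a receptor that amplifies inflammation, read 4.56 and 4.57, then 7.41 and 4.72. Clec4e, the receptor Mincle, read 4.53 and 4.51, then 7.10 and 5.18, and Hdc, which makes histamine, 8.53 and 7.21 with IMQ. The defining surface marker Ly6g stayed under the floor at 5.45 and 4.61. The granule genes Elane, Mpo, Ltf and Camp also stayed under it, with differences of -0.02, -0.10, -0.12 and 0.03. What part neutrophils have in the lower genes was not tested.

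Markers of other immune cells showed no such pattern, but many of them lay under the floor. Macrophage markers were divided evenly, 13 higher and 13 lower, with a median of 0.00. Retnla, a marker of alternatively activated macrophages, was 2.48-fold higher in EKO at 9.98 and 9.47 without IMQ and 6.85 and 8.16 with IMQ, and Cd14 had a difference of -0.91. Medians lay at 0.02 for dendritic and Langerhans cell genes, 0.01 for T cells, 0.01 for B cells, 0.06 for NK cells and 0.01 for mast cells. The floor was reached by only 9 of 20 dendritic, 5 of 20 T cell, 2 of 9 NK cell and 7 of 14 mast cell genes. These medians therefore say little about such cells. Over the members that reached it, the medians were 0.12, 0.25, 0.23 and 0.03. Of the T cell genes Cd3g was higher by 0.53 and Cd3e by 0.35. The 8 B cell genes all lay under the floor. Complement genes were 6 higher and 6 lower, with a median of -0.01.

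**Figure D3:**
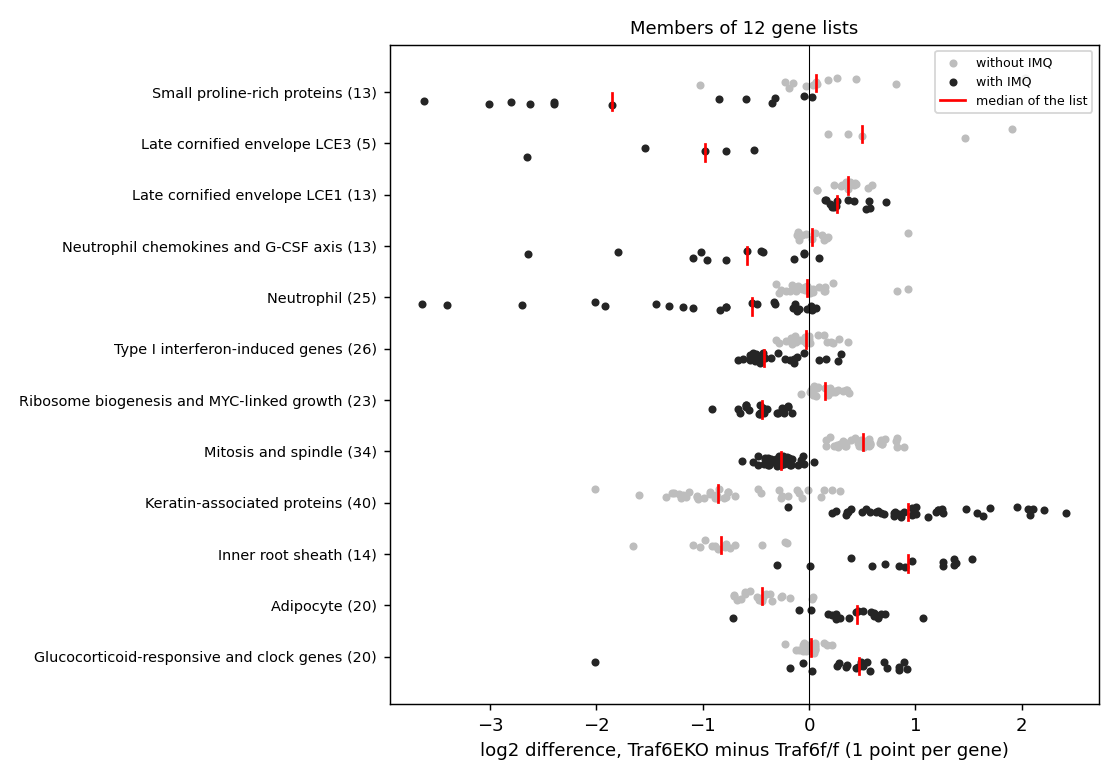
Log2 difference, Traf6EKO minus Traf6f/f, of each measured member of 12 gene lists without IMQ (grey) and with IMQ (black), 1 point per gene, with the median of each list as a red bar. Small proline-rich proteins spread from 0.03 down to -3.62 with IMQ, and keratin-associated proteins and inner root sheath genes lie on opposite sides of 0 in the 2 conditions.

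Genes of the cornified envelope, the protein shell of dead surface keratinocytes, went in different directions by family. Small proline-rich proteins, cross-linking precursors of the envelope, had the lowest median of 64 lists, -1.86 over 13 genes, against 0.07 without IMQ. Of the 13, 12 were lower and 7 passed 2-fold, all of them Sprr2 genes, against 0.875% of all genes compared. Members that reach the floor only through the treated f/f ear, such as Sprr2f, had to be lower in EKO, and their folds are imprecise. Sprr2f read 5.21 and 5.28 without IMQ and 9.37 and 6.36 with IMQ, an 8.07-fold difference. Sprr2e read 6.46 and 6.50, then 10.99 and 8.19, and was 6.97-fold lower. Sprr2d, at 11.32 and 9.46, was 3.62-fold lower. Sprr1a and Sprr1b, high in both treated ears, had differences of only -0.32 and -0.35, and Sprr3 one of 0.03. Without IMQ, Sprr1b was higher in EKO by 2.03, at 8.62 and 10.65, both above the floor. Sprr2 genes are near-identical, so their probe sets cannot be taken as separate measurements.

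LCE3 genes, the late cornified envelope family of wounded and psoriatic skin, were lower in EKO for 5 of 5, with a median of -0.98 against 0.50 without IMQ. Lce3a read 5.80 and 6.17 without IMQ and 10.43 and 7.78 with IMQ, 6.29-fold lower, and Lce3f was 2.92-fold lower. Lce3e was higher in EKO without IMQ, at 4.36 and 6.27, both under the floor, and lower with IMQ, at 10.16 and 9.38. Lce3c was also higher in EKO without IMQ, at 8.81 and 10.27, both above the floor, and lower with IMQ, at 12.32 and 11.80. LCE1 genes, the family of normal epidermis, were higher in EKO for 13 of 13, both with IMQ (median 0.27) and without (median 0.36), and none passed 2-fold. Lce1b read 11.54 and 11.84 without IMQ and 11.45 and 11.87 with IMQ.

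Both families lie in the epidermal differentiation complex, the gene cluster that runs from S100a10 to S100a1. Of 54 compared genes of the cluster 14 were at least 2-fold lower in EKO with IMQ, 25.9% of them against 0.875% of all genes, and they were 15.6% of the 90 lower genes. Cluster members that reach the floor only through the treated f/f ear, such as Sprr2f, had to be lower in EKO. Sprr2 probe sets are not separate measurements, so the 25.9% does not count independent genes. The cluster as a whole was balanced, with 28 genes below 0, 26 above and a median of -0.07. The 14 genes were 7 Sprr2 genes, Lce3a and Lce3f, S100a8, S100a9 and S100a7a, and the peptidoglycan recognition genes Pglyrp3 and Pglyrp4. Their relatives Sprr2h, Lce3e and Lce3c did not pass 2-fold, with differences of -0.85, -0.78 and -0.52. Its only gene at least 2-fold higher was Tchh, which encodes trichohyalin of the inner root sheath. Of the fused S100 proteins, Flg2 (filaggrin 2) was higher by 0.84 and Hrnr (hornerin) by 0.31, and Rptn (repetin) had a difference of -0.47.

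Enzymes and partners of envelope assembly were close to level, with 13 of 22 higher, a median of 0.06 and none past 2-fold. The transglutaminase genes Tgm3 and Tgm1 had differences of -0.66 and -0.51, and Lor (loricrin) was higher by 0.38. Barrier lipid enzymes were lower for 14 of 17, with a median of -0.13. Their largest difference was in the other direction: Alox12e, an epidermal lipoxygenase, was higher by 0.98, at 9.93 and 10.92. Basal and suprabasal keratins had a median of 0.13. Krt15, a keratin of basal and hair bulge cells, was 2.01-fold higher in EKO at 9.16 and 10.16, below its untreated levels of 11.10 and 10.80 in both.

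Genes of wounded and stressed keratinocytes were lower in EKO for 23 of 24, with a median of -0.70 against 0.24 without IMQ, and 6 passed 2-fold. Over all genes compared 50.9% were lower and 0.875% at least 2-fold lower. Krt6a and Krt16, keratins of activated epidermis, remained high in both treated ears. Krt6a read 8.20 and 8.32 without IMQ and 12.05 and 11.13 with IMQ, and Krt16 read 7.51 and 8.38, then 12.20 and 11.47. Plet1, a surface protein of migrating keratinocytes, was 3.37-fold lower at 11.67 and 9.92. Tnc, which encodes the wound matrix protein tenascin C, had a difference of -0.86.

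Ligands and receptors of the EGF receptor family were divided, 7 higher and 5 lower of 12, with a median of 0.06. The 4 that passed 2-fold were all ligands and all lower. Epgn (epigen) read 6.67 and 7.30 without IMQ and 10.65 and 8.67 with IMQ, a 3.93-fold difference. Hbegf was 3.30-fold lower at 9.66 and 7.94. Tgfa was 2.34-fold lower at 9.45 and 8.23, and Nrg1 2.21-fold lower at 7.21 and 6.07. Other ligands were level or higher: Ereg (epiregulin) read 9.45 and 9.48, and Btc (betacellulin) was higher in EKO by 0.73. The receptors were near level, with Egfr at 9.86 and 9.72 and Erbb2 at 9.32 and 9.41.

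Proteases and their inhibitors held single strong genes. Stefin A inhibitors, which block cysteine cathepsins, were lower for 6 of 6. Csta3 read 4.63 and 4.85 without IMQ and 8.84 and 6.29 with IMQ and was 5.84-fold lower, and Stfa2 was 2.72-fold lower. These genes too have near-identical relatives. Of 15 kallikreins and Kazal inhibitors, Klk10 passed 2-fold at 11.33 and 9.93, and Klk13, Klk12 and Klk6 had differences of -0.99, -0.89 and -0.59. Timp1, an inhibitor of matrix metalloproteinases, was 2.98-fold lower at 9.14 and 7.57. Mmp13, Mmp19 and Mmp3 had differences between -0.89 and -0.85. Serpins were 9 higher and 8 lower, from Serpina12 at 0.97 to Serpinb3a at -0.71.

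Ptgs2, the inducible cyclooxygenase, read 6.36 and 7.54 without IMQ and 9.59 and 8.03 with IMQ. It was the gene at least 2-fold higher in EKO without IMQ and at least 2-fold lower with it. Pla2g4e, a phospholipase A2, was 2.34-fold lower, and Ptges, which makes prostaglandin E2, had a difference of -0.66. The gap junction genes Gjb2 (connexin 26) and Gjb6 (connexin 30) were 2.69-fold and 2.18-fold lower, while Gjb5 was higher by 0.62. Desmosome genes had a median of 0.01, with Dsc2 2.27-fold lower and Dsp, Jup and Pkp1 within 0.09 of level. Hemidesmosome and basement membrane genes had a median of -0.14.

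Several other lower genes encode enzymes and transporters. Has2, a hyaluronan synthase, read 6.46 and 6.31 without IMQ and 8.19 and 6.01 with IMQ, a 4.52-fold difference. Slc7a11, the cystine transporter, read 5.83 and 6.43, then 10.01 and 7.92, a 4.26-fold difference. Uox (urate oxidase) read 6.96 in the treated f/f ear, just over the floor, and between 4.33 and 4.41 on the other 3 arrays. Of the 20 NRF2-linked antioxidant genes, which include Slc7a11, 13 were lower and Gstm1 was higher by 0.78.

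Proliferation genes were lower by little but in nearly every case. Of 34 genes of mitosis and the spindle 33 were lower in EKO with IMQ, none by 2-fold, with a median of -0.27. Without IMQ their median was 0.51 in favour of EKO. The median level of the list was 6.51 and 7.05 without IMQ and 8.18 and 7.86 with IMQ, so the treated ears were both above the untreated ones. Cdk1, the mitotic kinase, read 7.73 and 8.29, then 9.57 and 9.04, and Bub1, a spindle checkpoint kinase, 5.38 and 6.07, then 7.80 and 7.17. DNA replication genes were lower for 29 of 33, with a median of -0.17 against 0.20 without IMQ.

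Genes of ribosome biogenesis and growth were lower for 23 of 23, with a median of -0.44, and 6 passed 1.5-fold. Odc1, which makes polyamines, read 7.76 and 7.80 without IMQ and 8.79 and 7.88 with IMQ. Nop58 and Nop56, core proteins of nucleolar particles, had differences of -0.66 and -0.59, and Ncl (nucleolin) -0.47. Proteasome subunits were lower for 33 of 33, with a median of -0.20 and none past 1.5-fold. Psme2 had the largest difference, -0.38. By contrast, oxidative phosphorylation, glycolysis and cholesterol synthesis had medians of -0.09, -0.06 and -0.05. In the glycolysis list Hif1a, the hypoxia factor, read 10.68 and 10.07.

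Glucocorticoid-responsive and clock genes were higher in EKO for 17 of 20, with a median of 0.47 against 0.02 without IMQ. Per3 read 8.79 and 8.75 without IMQ and 7.77 and 8.62 with IMQ. Dbp, a clock output factor, read 9.27 and 9.31, then 8.31 and 9.16. Tsc22d3, a glucocorticoid-induced regulator also called GILZ, read 10.14 and 10.17, then 8.92 and 9.62. In all of these the treated f/f ear stood below the other 3. The hour at which each ear was taken is not stated. Cyp2e1, a cytochrome P450 of fat and liver, was 2.76-fold higher at 10.64 and 9.94 without IMQ and 7.96 and 9.43 with IMQ.

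**Figure D4:**
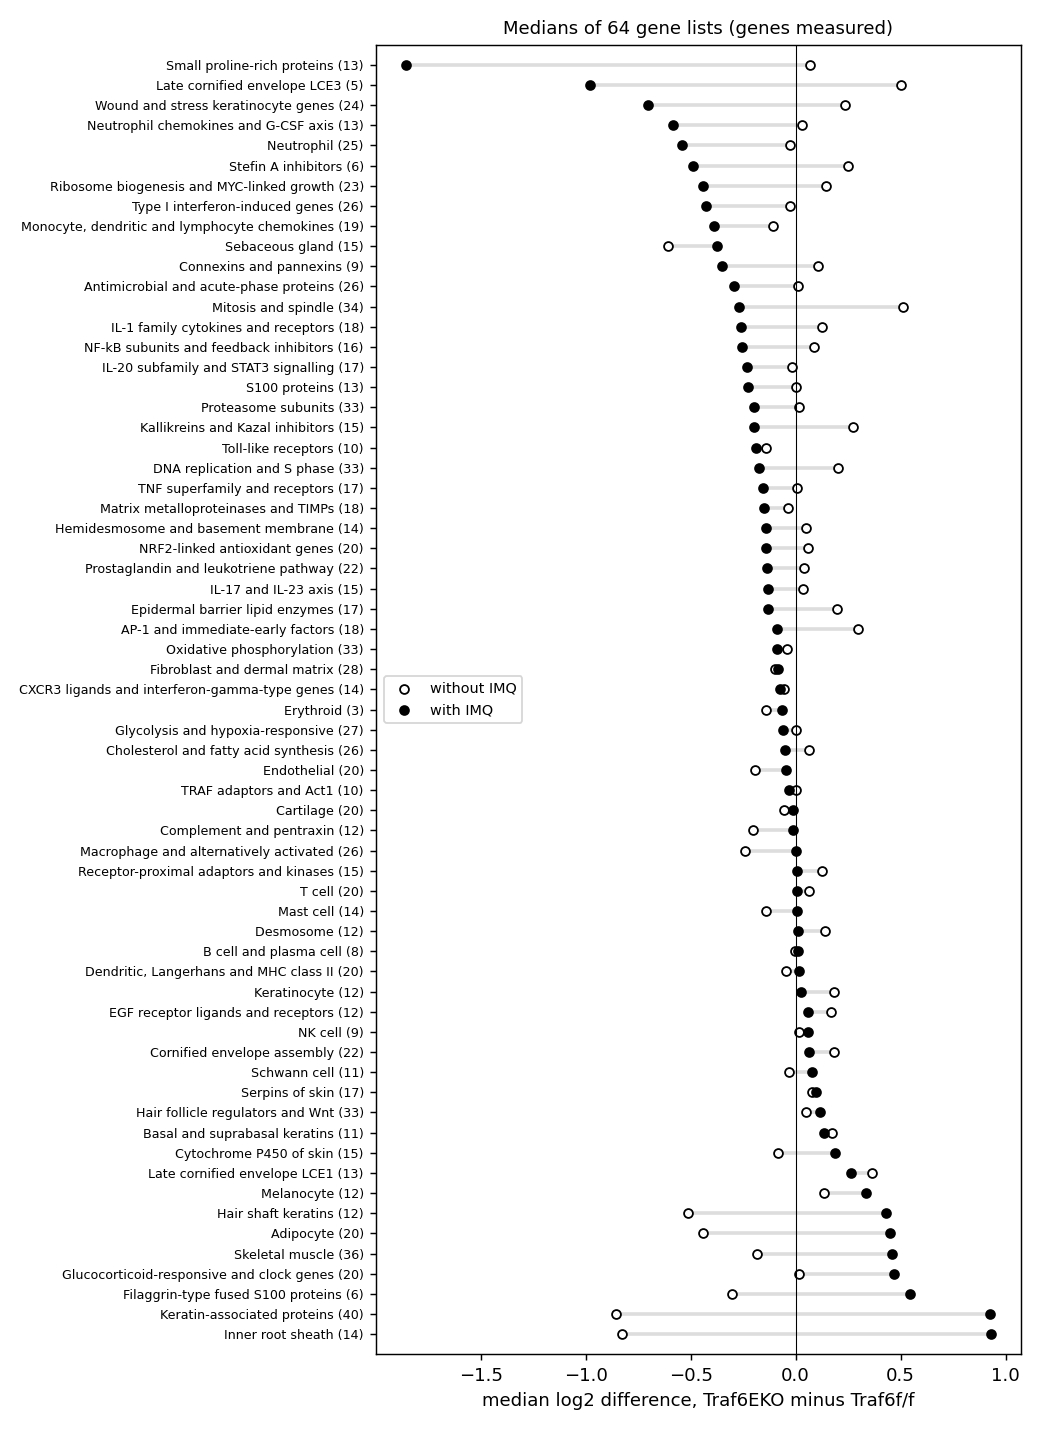
Median log2 difference, Traf6EKO minus Traf6f/f, of 64 gene lists without IMQ (open circles) and with IMQ (filled circles), with the number of genes measured in brackets. With IMQ the medians run from -1.86 for small proline-rich proteins to 0.93 for keratin-associated proteins and inner root sheath genes.

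Hair genes formed most of the higher set. Keratin-associated proteins, which cross-link hair keratins, were higher in EKO for 39 of 40, with a median of 0.93, and 15 passed 2-fold, out of 43 genes in the higher set. Over all genes compared 0.418% were at least 2-fold higher. Members that reach the floor only through the treated EKO ear, such as Krtap19-1, had to be higher in EKO. Krtap19-1 read 7.79 and 8.00 without IMQ and 6.62 and 9.04 with IMQ, 5.35-fold higher in EKO. Krtap8-1 read 10.12 and 9.23, then 8.13 and 10.33, and was 4.62-fold higher. Krtap6-1 read 7.92 and 6.58, then 5.32 and 7.38, and was 4.16-fold higher. For the last 2 the untreated EKO ear was the lower one. Keratin-associated proteins are families of close relatives and can share probes.

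The inner root sheath, which moulds the growing hair, gave the same picture. Its list of 14 genes also holds the hair shaft gene Gprc5d and the hair cuticle gene S100a3. Of the 14, 13 were higher, 5 by at least 2-fold, Gprc5d among them, with a median of 0.93 against -0.83 without IMQ. Krt25, Krt27 and Krt71, keratins of the sheath, were 2.40-fold, 2.57-fold and 2.39-fold higher. Krt71 read 9.68 and 8.88 without IMQ and 8.46 and 9.72 with IMQ. Tchh was 2.61-fold and Gprc5d, an orphan receptor of the hair shaft, 2.57-fold higher. Hair shaft keratins were higher for 11 of 12, led by Krt33a at 8.98 and 8.14, then 7.35 and 9.03, and followed by Krt86 and Krt31. With IMQ, Gprc5d, Krt86 and Krt31 reached the floor only in the EKO ear, so they had to be higher there. Regulators of the follicle and the Wnt pathway had a median of only 0.11, with Bmp4 higher by 0.58 and Wif1 by 0.32. The hair cycle stage of each ear is not stated.

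Melanocyte genes were higher for 12 of 12, with a median of 0.33, and 2 passed 2-fold, against 0.418% of all genes compared. Only 7 of the 12 reached the floor. Without IMQ 8 were higher and 3 lower, with a median of 0.13. Tyrp1, a melanin enzyme, read 6.74 and 7.99 without IMQ and 6.51 and 8.16 with IMQ, and was 3.14-fold higher with IMQ. It was the gene at least 2-fold higher in EKO in both conditions. Dct, another melanin enzyme, read 6.98 and 7.80, then 6.48 and 7.82. With IMQ, Tyrp1 and Dct reached the floor only in the EKO ear, so they had to be higher there. Mitf, the master regulator of the lineage, differed by 0.16.

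Sebaceous gland genes were lower for 11 of 15, with a median of -0.37 with IMQ and -0.61 without. Dgat2l6, an acyltransferase of sebum, was lower in both conditions, at 8.13 and 6.85 and at 8.91 and 7.80. Awat1, a wax synthase, was 2.05-fold lower with IMQ.

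Markers of the deeper tissues of the ear differed as well. Adipocyte genes were higher in EKO with IMQ for 18 of 20, with a median of 0.45 against -0.44 without IMQ. Their summed unlogged level was 29678.8 and 22735 without IMQ and 14002 and 18394 with IMQ. Adipoq (adiponectin) read 10.83 and 10.12, then 8.89 and 9.52. Skeletal muscle genes were higher for 34 of 36, with a median of 0.46 against -0.18, and a summed level of 65833 and 58267, then 35173 and 46754.5. Mylk4 was 2.47-fold higher, whereas Xirp1, a protein of damaged muscle fibres, was 2.03-fold lower. In both tissues the treated f/f ear had the lowest sum. Cartilage, fibroblast, endothelial and Schwann cell genes had medians of -0.01, -0.08, -0.05 and 0.08. What part a different share of deep tissue has in the higher or lower genes was not tested.

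Car6, a secreted carbonic anhydrase, and the secretoglobin Scgb1b27 were also among the largest higher differences. Car6 read 8.56 and 8.34 without IMQ and 6.44 and 8.54 with IMQ, and Scgb1b27 8.38 and 9.32, then 7.18 and 9.38. The other probe set of Scgb1b27 lay under the floor with IMQ, at 3.35 and 3.91, a difference of 0.56. Inmt, a methyltransferase, Fmo2, a flavin monooxygenase, and Mt4, the metallothionein of stratified epithelium, were 2.85-fold, 2.62-fold and 2.60-fold higher. For each of these 5 genes the treated f/f ear was lower than the other 3.

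The genotype difference with IMQ was set beside that without IMQ, which uses no array in common. Without IMQ, 33 of 10200 genes were at least 2-fold lower in EKO (0.324%) and 7 at least 2-fold higher (0.0686%). Across the 9836 genes compared in both, the differences had a Pearson r of -0.10 and a Spearman rho of -0.05. These describe genes on 4 arrays, which share normalisation, and genes are not independent replicates. Of the 90 genes lower with IMQ 46 were higher and 44 lower without it, with a median of 0.01, and 79 differed by less than 0.5. At least 2-fold lower in both conditions were 3 genes: Rnase2b, an eosinophil-type ribonuclease, Akr1c18, a steroid reductase, and Dgat2l6. These 3 are 3.33% of the 90 genes and 9.09% of the 33.

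Of the 43 genes higher with IMQ 32 were lower in EKO without it, with a median of -0.57, and 7 of them by at least 2-fold. Tyrp1 alone was at least 2-fold higher in both. Lower genes with IMQ were thus spread evenly around 0 in untreated skin, and most higher genes lay on the opposite side of it. Of the 90 lower genes, however, 51 were under the floor on the untreated f/f array and 48 on the untreated EKO array. No test of that contrast was possible with 1 array a group.

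**Figure D5:**
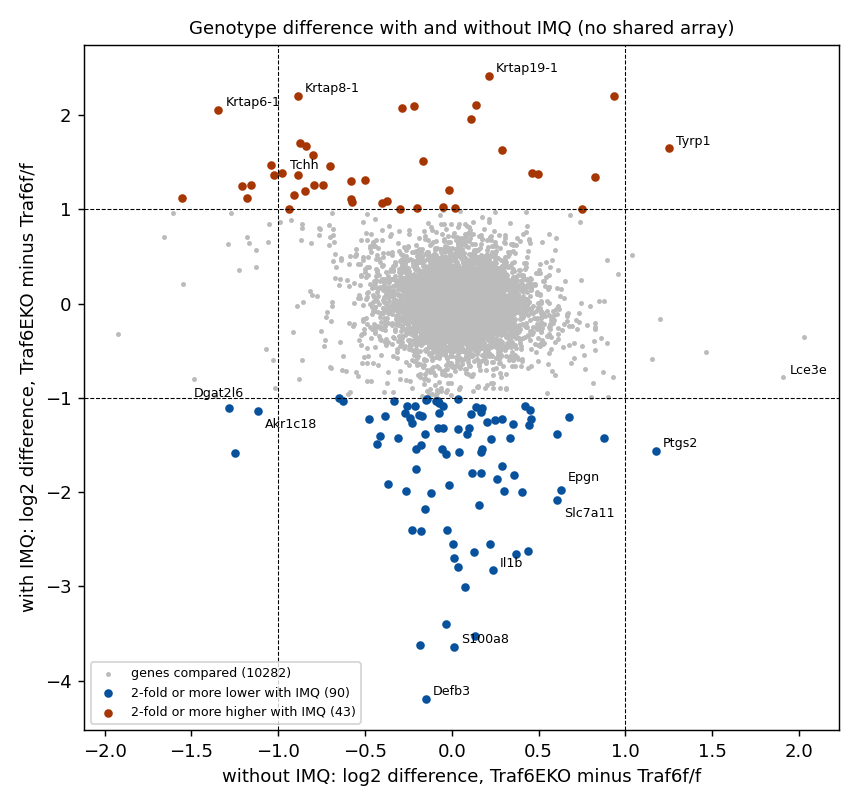
Log2 difference, Traf6EKO minus Traf6f/f, without IMQ (horizontal axis) and with IMQ (vertical axis) for the 10282 genes compared with IMQ; blue points are the 90 genes at least 2-fold lower with IMQ, red-brown points the 43 at least 2-fold higher, and dashed lines mark 2-fold. The blue points centre near 0 on the horizontal axis (median 0.01) and the red-brown points to its left (median -0.57).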

How the data were processed

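Whole-ear RNA was read on Affymetrix Mouse Gene 1.0 ST arrays, 1 per group, per the labels' protocols. The deposited values are log2 levels made with RMA by the authors, per the submitters' processing notes; the sources used here give no version. RMA equalises array distributions, so a shift of most genes one way would be hidden, and it compresses low signals. Of 35556 probe sets, 21789 had 1 gene symbol in the platform annotation, 1621 several and 12146 none listed; 21698 of the first kind were found in RefSeq (GRCm38.p6) by Entrez ID and 0 symbols differed. The 4 arrays were grouped by title. Differences were counted at 2-fold above the floor, and 64 gene lists were described by counts and medians, with Python 3.11.15, pandas 2.3.3 and limma 3.58.1 (for renormalisation). Named are Traf6, the 20 largest differences each way without gene models of no established name, and, for each list, the 8 members at most with the largest differences, plus those a role requires. Scaling, floor, fold and probe set rules were varied. The counting script was tested on simulated data. Members and lists were chosen with earlier results of these data known.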

Additional observations from a re-analysis of the deposited data

Results flagged for a closer look

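Without replicates none of the following was tested. Several of the named genes were past 1.5-fold in EKO in opposite directions with and without IMQ, and are given as the log2 difference with IMQ and then without. No floor was set on the levels without IMQ. Slc7a11, Defb14, Sprr2h, Lce3e and Bub1, for instance, lay under the floor in both untreated ears, so their untreated differences are imprecise. Lower with IMQ and higher without were Slc7a11 (-2.09 and 0.61), Epgn (-1.98 and 0.63), Ptgs2 (-1.57 and 1.17), Defb14 (-1.43 and 0.88), Klk13 (-0.99 and 0.80), Il1f6 (-0.99 and 0.90), Sprr2h (-0.85 and 0.81), Lce3e (-0.78 and 1.91), Cxcr2 (-0.78 and 0.93), Bub1 (-0.63 and 0.69) and Klk6 (-0.59 and 1.15).

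Among named genes of the hair and its sheath, higher with IMQ and lower without were Krtap8-1 (2.21 and -0.89), Krtap6-1 (2.06 and -1.34), Krtap7-1 (1.70 and -0.87), Krt33a (1.68 and -0.84), Krtap11-1 (1.58 and -0.80), Krtap6-5 (1.48 and -1.04), Tchh (1.39 and -0.98), Gprc5d (1.36 and -1.02), Krt27 (1.36 and -0.89), Krt25 (1.26 and -0.74), Krt71 (1.26 and -0.80), Krt86 (1.15 and -0.91), Krt73 (0.96 and -0.69) and Krt72 (0.85 and -0.86). Further hair genes, outside the naming rule and added after their values were seen, met the same limits: Krtap21-1 (1.26 and -1.16), Krtap3-3 (1.25 and -1.21), Krtap1-5 (1.19 and -0.85), Krtap24-1 (1.01 and -0.94) and Prr9 (0.71 and -1.66). The list medians of keratin-associated proteins (0.93 and -0.86) and of the inner root sheath (0.93 and -0.83) did the same. Outside hair, the same order held for Cyp2e1 (1.47 and -0.70), Pck1 (0.71 and -0.70), Aqp7 (0.65 and -0.68), Crnn (0.64 and -0.81), Cxcl10 (0.64 and -1.17) and Adipoq (0.63 and -0.71).

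Probe sets that the comparison does not use also differed at least 2-fold in EKO with IMQ. Of those listed with several symbols 5 were lower and 2 higher, among 768 that reached the floor. Of those with no symbol listed 5 were lower and 7 higher, among 3754.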

How the results depend on the processing

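The counts of 43 higher and 90 lower genes became 40 and 91 after median centring of the arrays, 44 and 88 after cyclic loess, 44 and 85 after quantile normalization, 42 and 90 with probe sets of a gene averaged and 49 and 97 with no floor. With the floor required on both arrays they were 20 and 60, which shows that many counted genes, higher ones above all, rest on a level near background in 1 ear. A 1.5-fold limit gave 209 and 268, and a 3-fold limit 12 and 34. The 41 individually named genes (Traf6 and the 20 largest each way) kept their side of the 2-fold limit in 164 of 164 values under the scaling and probe set alternatives, which moved the median of all genes by at most 0.01 in size. No list median moved by over 0.1 under those alternatives. With the mean of members in place of the median 22 of 64 lists moved by more than that; with members under the floor left out 15 did, and the IL-20 and STAT3 list turned from -0.23 to 0.0418. That setting also moved printed medians of T cell genes to 0.25, of NK cell genes to 0.23, of dendritic cell genes to 0.12 and of the EGF receptor family to -0.05. Leaving out members shared with other lists moved 8, among them basal and suprabasal keratins from 0.13 to 0.43 and the IL-20 and STAT3 list to -0.01. No paired analysis was possible because each group has 1 array. Leaving out a replicate was not possible for the same reason.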

Other observations

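Of the 90 genes lower in EKO with IMQ, 38 were on none of the lists. The examples here were chosen after their values were seen, and are given with no test. Has3, a hyaluronan synthase like Has2, read 5.04 and 5.33 without IMQ (f/f, then EKO) and 8.38 and 6.39 with IMQ. Alox8, a lipoxygenase of irritated mouse skin, read 8.54 and 8.28, then 10.51 and 8.52. The peptidoglycan recognition genes Pglyrp3 and Pglyrp4 were 2.91-fold and 2.52-fold lower, and Clec7a, the beta-glucan receptor Dectin-1, 2.68-fold lower. Acod1, which makes itaconate in activated macrophages, read 5.89 and 5.85, then 7.96 and 6.37. Besides Slc7a11 the solute carriers Slc5a8, Slc1a1, Slc5a1, Slc39a14 and Slc6a14 were lower, by 2.92-fold, 2.81-fold, 2.30-fold, 2.04-fold and 2.04-fold.

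A small group of lower genes is known from stretched or damaged muscle: Ankrd1 was 2.83-fold, Csrp3 2.28-fold and Mustn1 2.05-fold lower, and Xirp1 belongs with them. They stood on the opposite side from 34 of 36 skeletal muscle genes. Csrp3 read 9.17 and 8.78 without IMQ and 9.77 and 8.58 with IMQ, and Ankrd1 6.39 and 6.21, then 7.77 and 6.27.

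Among the 43 higher genes 13 were on none of the lists. Skint4, of a family expressed in keratinocytes and thymus, read 8.08 and 8.10, then 6.66 and 7.68. Mrgprb3 read 8.63 and 8.26, then 6.56 and 7.65, and Cyp17a1, a steroid-making enzyme, 8.40 and 9.15, then 8.16 and 9.17.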
